A study of Mus musculus with 3 samples.

Results

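The mitochondrial solute carriers are the family of membrane proteins that move metabolites, nucleotides, cofactors and ions across the inner membrane of mitochondria, and their genes carry the symbol Slc25a followed by a number. Every tabulated gene whose symbol has that form was taken, which gave 47 of 24411 genes, and the rule itself uses the symbol alone. RNA sequencing had been performed on total RNA from microglia, the resident macrophages of the brain, in 3 libraries of 1 group, replicates 1 to 3. All 3 came from adult C57BL/6J mice labelled cKO with the treatment Pu.1 inhibitor. The genotype cKO is Mir137loxP/loxP;Tmem119-CreERT2, in which a recombinase activated by tamoxifen and driven by the microglial gene Tmem119 deletes the microRNA gene Mir137. Tamoxifen was injected on 7 consecutive days at 7 to 8 weeks of age, and the labels gave an age of 6 to 8 weeks. Pu.1, encoded by Spi1, is a transcription factor of macrophages, and the sources used here do not name its inhibitor or give the dose, duration or route. Knockout microglia without inhibitor and Mir137+/+;Tmem119-CreERT2 microglia (cWT) were not analysed here, so what follows are levels with deletion and inhibitor together, and neither effect could be measured. The series design gives 4 mice without tying them to replicates, so p-values here speak for the variation among these 3 preparations, part or all of which may be technical. Mir137 itself had 0 counts in each library, but with no library of undeleted cells analysed here, and with a transcript this short, that value does not check the deletion. Spi1 had 187, 191 and 182 FPKM, and its transcript level says nothing about inhibition of the protein.

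Between 15710750 and 17180404 estimated counts were assigned per library. All 10 microglial marker genes examined, among them P2ry12, Cx3cr1 and Tmem119, reached an FPKM (fragments per kilobase of effective gene length, scaled for library size) of at least 1 in every library, and their summed level was 13700 to 14350 FPKM. Markers of other cells were present too. All 10 neutrophil genes passed the same limit with a sum of 14170 to 15640 FPKM, most of it S100a8 and S100a9, all 8 endothelial genes with 2289 to 2462, all 7 choroid plexus and ependymal genes with 6229 to 7110, all 7 oligodendrocyte genes with 228.8 to 286.5, all 8 astrocyte genes with 194.9 to 218.5, and 2 of 8 neuronal genes, the 8 together summing to 17.1 to 18.55 FPKM with Nefl at 0. In such bulk RNA, fewer cells of a type and less RNA per cell cannot be told apart, and the part of these other cells in the carrier levels below was not tested.

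Carrier proteins share a fold of 3 tandem repeats and most of them exchange a compound of the matrix for one of the cytosol. Through them ADP and phosphate reach the ATP synthase, ATP leaves for the cytosol, reducing equivalents enter by the malate-aspartate shuttle, and citrate leaves for lipid synthesis. In macrophages, citrate export is also known for its part in inflammatory activation. The carriers are encoded in the nucleus, made in the cytosol and inserted into the inner membrane by the TIM22 complex.

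Of the 47 carrier genes, 37 were detected, meaning an FPKM of at least 1 in each of the 3 libraries, which is 78.7% of them beside 47.8% of all genes tabulated. The table also lists many noncoding loci, and among 19894 symbols annotated as protein-coding the share was 55.5%. A mean of at least 10 FPKM was reached by 20 carriers, 42.6% of them, beside 33.0% of protein-coding symbols. The levels ran over a wide range, with 2 carriers above 100 FPKM, 5 between 30 and 100, 13 between 10 and 30, 17 between 1 and 10, and 10 under 1 FPKM. The median of log2(FPKM + 1) over all 47 was 3.08 ± 0.10, with 3.18, 3.07 and 2.99 in replicates 1, 2 and 3, beside 1.88 ± 0.02 over protein-coding symbols and 0.95 ± 0.02 over all genes (mean ± SD, n = 3, as for all values given in this form). Over detected genes alone, the median was 3.65 ± 0.07 for the carriers and 3.82 ± 0.003 for all genes. Detected carriers were thus slightly lower than detected genes in general, in each library. Together the carriers took 0.157 ± 0.00078% of the counts and summed to 976.5 ± 10.9 FPKM. The 3 highest, Slc25a5, Slc25a3 and Slc25a4, made up 51.4 ± 0.85% of that summed FPKM and 34.6 ± 0.93% of the carriers' counts.

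**Figure D1:**
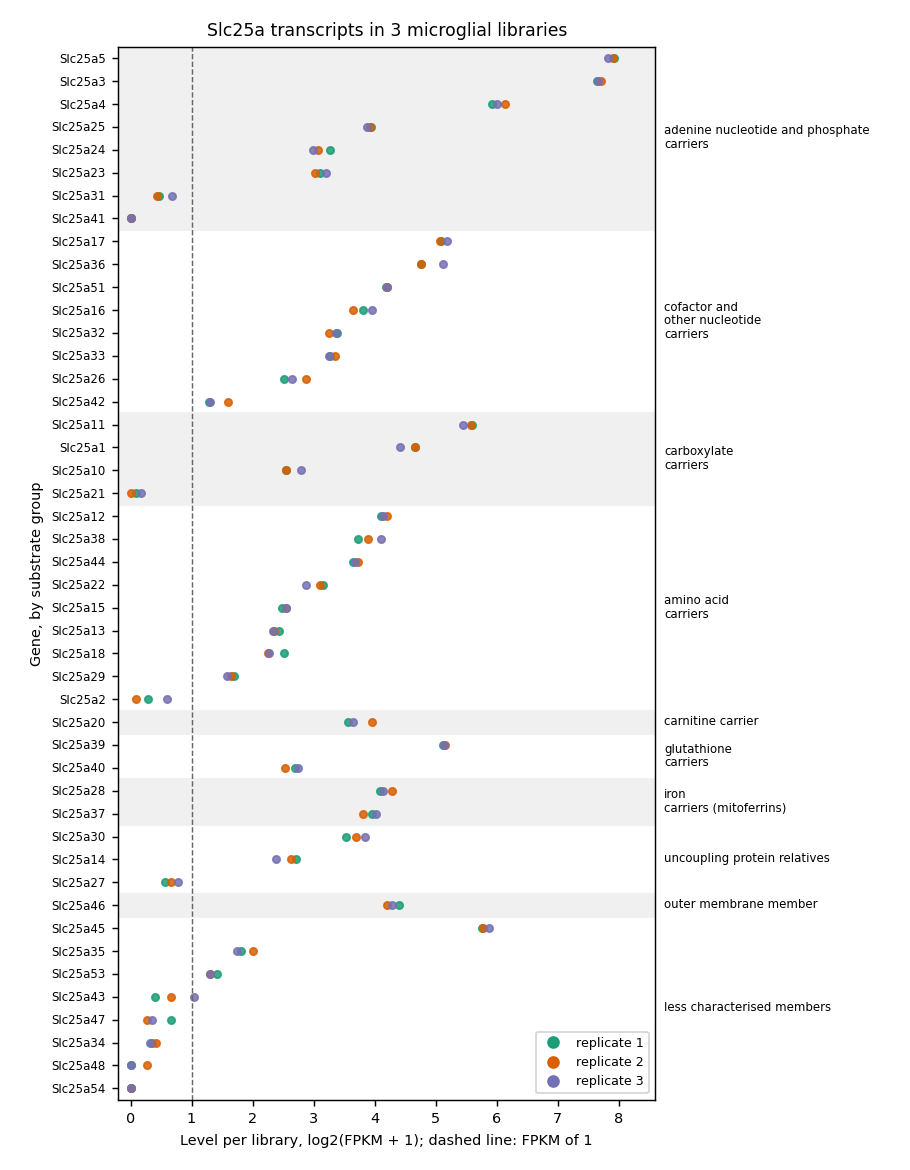
Level of 46 of the 47 Slc25a genes in each library, as log2(FPKM + 1) on the horizontal axis, with 1 point per replicate and the genes grouped by substrate. The dashed line marks an FPKM of 1: 36 of the genes drawn lie to its right in all 3 libraries, and Slc25a5, Slc25a3, Slc25a4 and Slc25a45 stand highest.

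Sorted by mean FPKM, the carriers form 46 neighbouring pairs, and in 33 of them the 3 values of one overlapped those of the next. The 5 at the top were each clear of the next in every library, in the order Slc25a5, Slc25a3, Slc25a4, Slc25a45 and Slc25a11. Below them stood Slc25a39, Slc25a17, Slc25a36, Slc25a1, Slc25a46, Slc25a51 and Slc25a28. Of these, the ranges of Slc25a39 and Slc25a17, Slc25a17 and Slc25a36, Slc25a46 and Slc25a51, and Slc25a51 and Slc25a28 overlapped. Read library by library, Slc25a17 was nevertheless above Slc25a36 in all 3, whereas the order of Slc25a39 and Slc25a17 and that of Slc25a51 and Slc25a28 changed between libraries, and Slc25a46 and Slc25a51 were level in replicate 2. This order is per length. The place of Slc25a4 rests on a recovered effective length of 826 bases, although its coding transcript in GENCODE M21 has 1925, which would lower its FPKM. In CPM, counts scaled for library size and not divided by length, Slc25a3 was first and Slc25a5 second, and Slc25a4 ranked 9, against 3 in FPKM. Slc25a46 and Slc25a51, whose effective lengths are 4090.0 and 4156 bases, ranked 5 and 7 among the carriers, against 10 and 11 in FPKM.

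The carriers that supply the ATP synthase were the most abundant. Of 8 carriers of adenine nucleotides and phosphate, 6 were detected, with a summed level of 519.5 to 545.1 FPKM. Slc25a5 (GRCm38 chromosome X, 36795651 to 36798807, plus strand), which encodes the adenine nucleotide translocase ANT2 that exchanges ADP for ATP, had 242, 239 and 226 FPKM in replicates 1, 2 and 3. Its mean of 235.6 ± 8.43 FPKM placed it at rank 318 among all genes. Slc25a3 (chromosome 10, 91116574 to 91124059, minus strand), the phosphate carrier, had 198, 208 and 201 FPKM, a mean of 202 ± 5.03. Slc25a4 (chromosome 8, 46206797 to 46211284, minus strand) encodes ANT1, the translocase that predominates in heart and skeletal muscle, and had 60.0, 69.4 and 63.2 FPKM. Slc25a31 encodes ANT4, the translocase of male germ cells, and stood at 0.38, 0.35 and 0.60 FPKM, from 12, 10 and 18 counts. All 4 spermatid markers examined (Prm1, Prm2, Tnp1 and Tnp2) were at 0. ANT2 transcripts made up 78.5 ± 1.38% of the FPKM of the 3 translocases, and the lowest ANT2 value was above the highest of ANT1 by a wide margin in every library.

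The windows around the start sites of the 3 translocase genes are shown because these genes encode proteins of the same activity and yet ran from the highest carrier level to one under 1 FPKM. Each sequence is 300 bases of RefSeq GRCm38.p6, 5′ to 3′ on the gene's strand, from 250 bases before the start to 50 after it, at chrX:36795347-36795646 (plus), chr8:46211013-46211312 (minus) and chr3:40708621-40708920 (plus). Capitals mark CpG dinucleotides. The RefSeq start of Slc25a5 lies upstream of the GENCODE start given above, so its window ends just before that start.
Slc25a5: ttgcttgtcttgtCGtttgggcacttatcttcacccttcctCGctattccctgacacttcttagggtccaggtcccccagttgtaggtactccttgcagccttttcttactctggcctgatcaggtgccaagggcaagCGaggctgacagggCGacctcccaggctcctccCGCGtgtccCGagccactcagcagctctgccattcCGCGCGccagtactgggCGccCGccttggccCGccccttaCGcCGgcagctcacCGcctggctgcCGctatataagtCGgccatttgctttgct
Slc25a4: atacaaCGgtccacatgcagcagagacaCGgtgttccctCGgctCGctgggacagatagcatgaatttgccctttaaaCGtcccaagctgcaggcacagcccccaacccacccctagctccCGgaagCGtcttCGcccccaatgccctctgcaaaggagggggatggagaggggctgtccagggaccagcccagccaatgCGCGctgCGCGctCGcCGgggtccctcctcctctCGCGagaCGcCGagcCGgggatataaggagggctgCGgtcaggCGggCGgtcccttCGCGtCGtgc
Slc25a31: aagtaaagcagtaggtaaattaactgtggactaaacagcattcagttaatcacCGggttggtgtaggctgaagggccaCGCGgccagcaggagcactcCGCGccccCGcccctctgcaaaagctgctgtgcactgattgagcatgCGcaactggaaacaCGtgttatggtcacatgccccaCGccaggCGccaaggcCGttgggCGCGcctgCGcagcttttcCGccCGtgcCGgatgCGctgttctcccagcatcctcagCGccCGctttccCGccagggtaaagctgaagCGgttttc
They held 18, 25 and 22 CpG dinucleotides in the order printed, so the window of Slc25a31, at under 1 FPKM, held more CpG than that of Slc25a5 and fewer than that of Slc25a4. Their GC contents were 61.0, 65.7 and 59.7%.

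Such windows were found for 36 of the 47 carriers, 46 windows in all, since some genes have several starts. Taking the window with most CpG for each gene, the median was 24 CpG (4 to 51) over 29 detected carriers, 11 (1 to 22) over 7 carriers that were not detected, and 8 over all genes with a window. The ranges of the detected and undetected carriers overlapped. The value over all genes with a window includes undetected genes, and none was taken over detected genes in general. Whether the CpG content of detected carriers differs from that of other detected genes was therefore not tested. Short motifs were looked for on both strands. The NRF1 core CGCATGCG was in 0 of 46 carrier windows and 1.87% of all 32851 windows. The ETS motif CCGGAAGT that GABPA binds was in 1 of 46, that of Slc25a20, and 3.89% of all windows. The Pu.1-type motif GAGGAAGT was in 0 of 46 and 3.2% of all, and TATAAA was in 2 of 46, those of Slc25a18 and Slc25a21, and 13.6% of all. The GABPA and Pu.1 motifs share the letters GGAAGT, and a window without a match says only that these letters are not in it.

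The calcium-regulated carriers of ATP-Mg and phosphate, which adjust the adenine nucleotide pool of the matrix, stood far below the translocases. Slc25a25 had 14.4, 14.2 and 13.7 FPKM and was the highest of the 4. Slc25a24 had 8.65, 7.37 and 6.94 FPKM, and Slc25a23 averaged 7.63 ± 0.51 FPKM. Slc25a24 and Slc25a23 overlapped, and both were below Slc25a25 in every library. Slc25a41, the member without calcium-binding domains, had 0 counts in each library, which allows up to 0.175, 0.191 and 0.183 CPM in replicates 1, 2 and 3, the equivalent of 3 counts, with counting error alone considered. Slc25a25 was the only carrier with counts that were not whole, 747.08, 675.86 and 673.34. The overlapping opposite-strand gene Naif1 had 61.92, 92.14 and 60.66, and the 2 genes summed to 809, 768 and 734, whole numbers in every library. The values of both genes are therefore uncertain where they overlap.

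Among the carboxylate carriers, 3 of 4 were detected. Slc25a11 (chromosome 11, 70644196 to 70647479, minus strand), the oxoglutarate-malate exchanger of the malate-aspartate shuttle, had 47.5, 47.0 and 42.7 FPKM. Slc25a1, which exports citrate, had 24.3, 24.5 and 20.3 FPKM, with replicate 3 the lowest for both of these genes. Slc25a10, which exchanges malate or succinate for phosphate, averaged 5.23 ± 0.61 FPKM. Slc25a21, the carrier of 2-oxoadipate and related acids, had 2, 0 and 4 counts. Per length, the citrate and oxoglutarate carriers stood above the dicarboxylate carrier in all 3 libraries. The Slc25a10 value rests on a recovered effective length of 3721 bases, while its coding transcript in the GENCODE M21 annotation has 2023. Without division by length the gap was smaller, with 584, 536 and 464 counts for Slc25a1 and 312, 285 and 361 for Slc25a10. The carnitine carrier Slc25a20, which brings acylcarnitines in for fatty acid oxidation, averaged 12.3 ± 2.01 FPKM, its replicate 2 value of 14.6 lying above the other two, 10.8 and 11.5.

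Of 9 amino acid carriers 8 were detected, with a median of 2.54 ± 0.02 on the log2(FPKM + 1) scale, beside 3.08 ± 0.10 over all 47 carriers. Slc25a12 encodes aralar, the aspartate-glutamate carrier that completes the malate-aspartate shuttle in brain and muscle, and had 16.2, 17.4 and 16.6 FPKM. Slc25a13 encodes citrin, its relative of the liver, and had 4.41, 4.10 and 4.07 FPKM. The glycine carrier Slc25a38, which feeds heme synthesis, averaged 14.2 ± 1.99 FPKM, and Slc25a44, a carrier of branched-chain amino acids, 11.9 ± 0.34 FPKM. Of the glutamate carriers, Slc25a22 had 7.91, 7.59 and 6.31 FPKM and Slc25a18 had 4.71, 3.76 and 3.83 FPKM. Slc25a18 is known as an astrocytic gene in brain, and astrocyte markers were detected in these libraries as given above. The ornithine carrier Slc25a15 averaged 4.76 ± 0.16 FPKM and the carrier of basic amino acids Slc25a29 2.12 ± 0.13 FPKM, whereas the second ornithine carrier Slc25a2 had 4, 1 and 9 counts.

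All 9 carriers of cofactors and other nucleotides were detected, with a summed level of 121 to 133 FPKM. Slc25a17, which serves peroxisomes rather than mitochondria, had 32.9, 32.7 and 35.5 FPKM. Slc25a36, a pyrimidine nucleotide carrier, had 26.3, 26.1 and 33.8 FPKM, so replicate 3 stood apart. Slc25a33, the other pyrimidine nucleotide carrier, had 8.68, 9.26 and 8.5 FPKM. Slc25a51, which imports NAD, had 17.2, 17.4 and 17.5 FPKM and was the most even detected carrier, its highest value being 1.02 times its lowest. Slc25a16 and Slc25a42 are both linked to coenzyme A, and had 12.96, 11.51 and 14.60 FPKM and 1.45, 2.03 and 1.46 FPKM. Slc25a32, reported to carry folate and flavin cofactors, averaged 9.14 ± 0.50 and the S-adenosylmethionine carrier Slc25a26 5.43 ± 0.84 FPKM.

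Glutathione and iron carriers were all detected. Slc25a39, which imports glutathione and so protects iron-sulfur proteins, had 33.7, 34.7 and 34.1 FPKM, and its relative Slc25a40 had 5.46, 4.79 and 5.72 FPKM. Both mitoferrins, which import iron for heme and iron-sulfur clusters, were detected. Slc25a28 (mitoferrin 2, found in many tissues) had 16.1, 18.6 and 16.6 FPKM, and Slc25a37 (mitoferrin 1, best known from developing red cells) had 14.5, 13.1 and 15.3 FPKM. Per length, the lowest value of Slc25a28 was above the highest of Slc25a37, but in counts the order was the other way round in every library, with 347, 365 and 341 for Slc25a28 and 966, 799 and 971 for Slc25a37. Of 7 erythroid genes 3 were detected, all globins, and the 7 summed to 238 to 320 FPKM, with none at 0 in all libraries and Slc4a1, the anion exchanger of red cells, at 0.020 FPKM. Their part in the Slc25a37 level was not tested. Among 11 genes of mitochondrial iron use 10 were detected, the highest being Iscu, the scaffold for iron-sulfur clusters, at 91.5 ± 12.2 FPKM, and the erythroid heme enzyme Alas2 at 0.92 ± 0.32 FPKM was the exception.

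Of 3 relatives of the uncoupling proteins 2 were detected. Slc25a30 averaged 11.96 ± 1.37 and Slc25a14 4.99 ± 0.71 FPKM, and Slc25a27, known mainly from neurons, had 0.48, 0.58 and 0.71 FPKM. The uncoupling proteins themselves belong to the same protein family under other symbols. Ucp2, reported in immune cells to limit oxidant production, had 671, 649 and 624 FPKM, above every Slc25a gene and equal to 0.664 ± 0.025 of the summed FPKM of all 47, while Ucp1 of brown fat and Ucp3 of muscle were at 0.030 ± 0.026 and 0.18 ± 0.15 FPKM. Mtch1 and Mtch2, family members of the outer membrane, averaged 57.1 ± 7.50 and 26.4 ± 1.37 FPKM. Slc25a46, another outer membrane member and a factor in mitochondrial shape, had 20.0, 17.4 and 18.6 FPKM.

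Of 8 less characterised carriers 3 were detected, and 1 of these was among the highest in the family. Slc25a45 (chromosome 19, 5877808 to 5885878, plus strand) had 53.2, 53.7 and 57.7 FPKM, rank 4 among the carriers in FPKM and rank 3 in CPM, and its annotated exons overlap no other gene. Slc25a35 averaged 2.63 ± 0.33 and Slc25a53 1.54 ± 0.12 FPKM. The others were under 1 FPKM on average. Slc25a43 had 4, 8 and 15 counts, Slc25a47 13, 4 and 6, Slc25a34 11, 13 and 10, and Slc25a48, linked to choline, 0, 4 and 0, whereas Slc25a54 had none.

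In 4 places on the genome, 2 carriers lie within 50 kb of each other, and in each place 1 was detected and the other was not. How often other neighbouring genes split in this way was not tested, so the split is not shown to be particular to carriers. It also depends on the limit, since the undetected Slc25a43 reached 1.05 FPKM in replicate 3. Slc25a5 at 235.6 FPKM and Slc25a43 at 0.65 FPKM are 18448 bases apart on chromosome X. Slc25a24 at 7.65 FPKM lies 6461 bases from Slc25a54, and Slc25a23 at 7.63 FPKM lies 2056 bases from Slc25a41, both of these neighbours having 0 counts. Slc25a29 at 2.12 FPKM and Slc25a47 at 0.35 FPKM lie on opposite strands of chromosome 12, with 162 bases between their GENCODE extents, although the RefSeq start of Slc25a47 lies inside its GENCODE extent and farther from Slc25a29. Of the 10 undetected carriers, 8 had a count in at least 1 library, and Slc25a41 and Slc25a54 had none.

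Within 8 pairs of related carriers the ratio of FPKM was taken library by library, which removes library size. Slc25a5 exceeded Slc25a4 by 3.69 ± 0.31 times (4.03, 3.44 and 3.58), Slc25a39 exceeded Slc25a40 by 6.46 ± 0.69 times, and Slc25a36 exceeded Slc25a33 by 3.27 ± 0.62 times. The ratio of Slc25a22 to Slc25a18 was 1.78 ± 0.21. Citrin stood at 0.251 ± 0.018 of aralar, Slc25a24 at 0.542 ± 0.050 of Slc25a25, and Slc25a42 at 0.129 ± 0.041 of Slc25a16. The mitoferrin ratio, Slc25a28 to Slc25a37, was nearest to 1 at 1.20 ± 0.18. Each of the 8 ratios lay on the same side of 1 in 3 of 3 libraries, and flipping the signs of the log2 ratios in an exact permutation test (two-sided) gave p = 0.25 for each. That test can give no lower p with 3 libraries, so it could not pass 0.05 for any ratio.

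**Figure D2:**
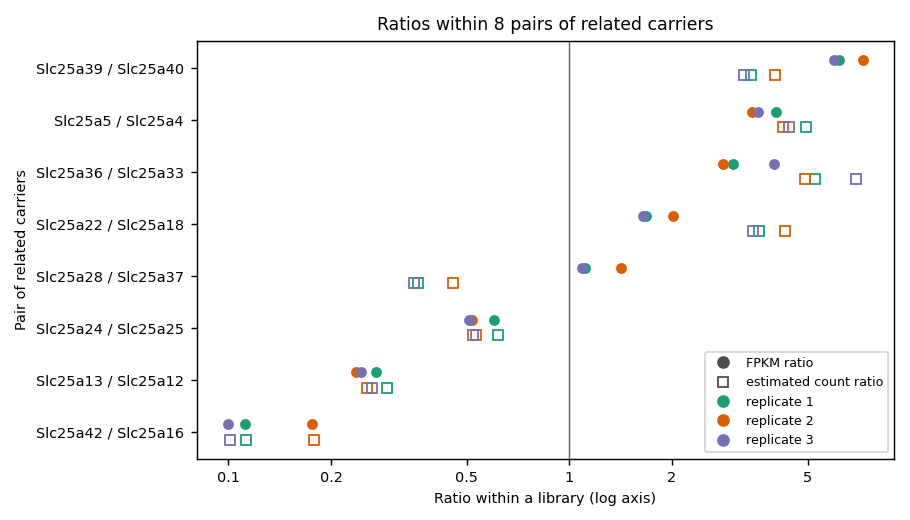
Ratio within each library for 8 pairs of related carriers on a log axis, filled circles for FPKM and open squares for estimated counts, coloured by replicate. Per length the mitoferrin ratio Slc25a28 / Slc25a37 is 1.20 and in counts it is 0.389, so that pair alone crosses 1.

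These ratios rest on the lengths behind the FPKM. Counts of the 2 mitoferrins gave 0.389 ± 0.059, the other way round, since the effective length was 1254 bases for Slc25a28 and 3880.0 for Slc25a37. In counts the ratio of Slc25a39 to Slc25a40 was 3.56 ± 0.40, that of Slc25a22 to Slc25a18 3.79 ± 0.45 and that of Slc25a36 to Slc25a33 5.70 ± 1.07, each moved by more than 1.5 times. For Slc25a4 the length recovered from the 2 tables was 826 bases, although its coding transcript in GENCODE M21 has 1925. With counts divided by the longest coding transcript of that annotation, an alternative chosen after seeing the data, the ratio of Slc25a5 to Slc25a4 became 7.03 ± 0.59, that of citrin to aralar 0.549 ± 0.040, that of Slc25a36 to Slc25a33 2.06 ± 0.39 and that of the mitoferrins 1.06 ± 0.16. The mitoferrin ratio was then 0.977, 1.24 and 0.955 in replicates 1, 2 and 3, above 1 in replicate 2 alone, so which mitoferrin was higher depends on the length used. The other 7 ratios kept their side of 1 in 3 of 3 libraries under that alternative. The recovered lengths of Slc25a12 and Slc25a18, 2643 and 1085 bases, are also far from their longest coding transcripts of 6351 and 1911.

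Set beside other nuclear-encoded mitochondrial genes, the carriers as a list had a lower median level. The difference in median log2(FPKM + 1), carriers minus list, was -3.31 ± 0.14 for 30 genes of oxidative phosphorylation, -2.39 ± 0.12 for 20 genes of the citric acid cycle and pyruvate entry, and -1.14 ± 0.03 for 12 genes that import carriers, below 0 in 3 of 3 libraries each time. All 30, all 20 and all 12 genes of these lists were detected, against 37 of 47 carriers. The carriers are every gene with the symbol, whereas the other lists were picked gene by gene, so undetected carriers widen these gaps. Over detected carriers alone the median was 3.65 ± 0.07, beside 6.39 ± 0.15, 5.47 ± 0.12 and 4.215 ± 0.084 for the lists in that order. It was still below each list in every library. The most abundant carriers reached the levels of respiratory subunits. Slc25a5 at 235.6 ± 8.43 FPKM stood beside Atp5a1 at 236 ± 6.48 and Atp5b at 287 ± 13.6 FPKM, the alpha and beta subunits of the ATP synthase. Not divided by length, Atp5a1 and Atp5b were well above it, averaging 8344 and 7532 counts. Slc25a5 had 4219, 3798 and 3752 counts in replicates 1, 2 and 3. Vdac2, a channel of the outer membrane, was at 201.5 ± 6.60 FPKM, close to the phosphate carrier. Of 13 other transporters of the inner membrane all were detected, from Mpc1 at 143 ± 7.04 FPKM, part of the pyruvate carrier, to Sfxn4 at 1.62 ± 0.43 FPKM. Among 8 regulators of mitochondrial genes 6 were detected, the highest being Yy1 at 46.6 ± 1.84 FPKM, while the coactivators Ppargc1a and Ppargc1b stood at 0.75 ± 0.02 and 0.94 ± 0.23 FPKM. On the log2 CPM scale, without division by length, the difference was -1.86 for the respiratory genes and -0.0073 for the import genes, so the gap to the import genes was present only per length.

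**Figure D3:**
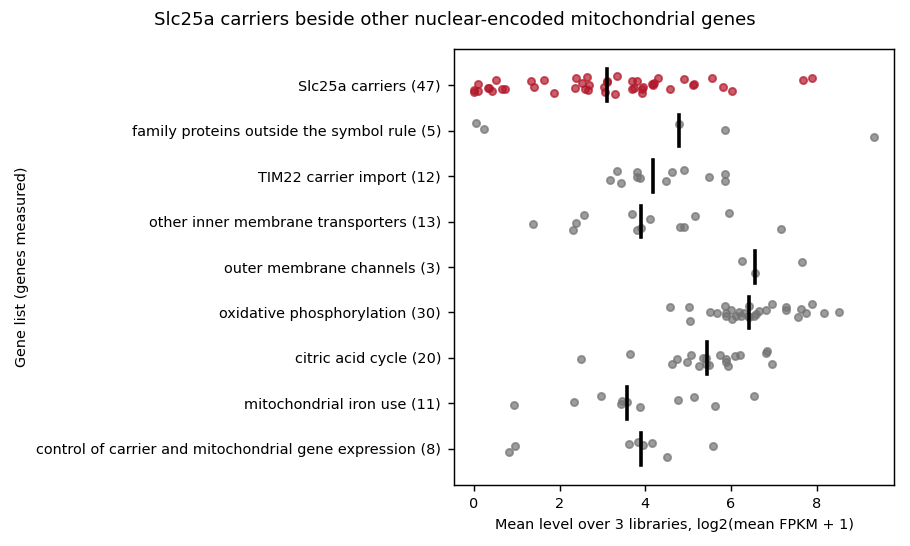
Mean level of each gene as log2(mean FPKM + 1), with the 47 Slc25a carriers in red at the top and 8 lists of other genes in grey, the number of measured genes in brackets and a black bar at each median. Carriers spread from 0 to the level of the ATP synthase subunits, whereas all 30 respiratory genes lie above 10 FPKM, and the point farthest right is Ucp2 at 648 FPKM.

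The spread between libraries was small for most carriers. Over the 37 detected ones the highest of the 3 FPKM values was between 1.02 and 1.40 times the lowest, with a median of 1.15. A chi-square test of homogeneity compared the 3 libraries given their effective sizes, gene by gene, for the 40 carriers that passed the count filter of edgeR. It called 13 of 40 different beyond counting error at an adjusted p under 0.05 (Benjamini-Hochberg over 13246 genes), 32.5% beside 41.4% of all genes tested. This marks nothing out about the carriers. Without replicate 1 it called 6 of 39 carriers, 15.4% beside 28.2% of all genes. Without replicate 2 it called 8 of 40, 20.0% beside 18.6%, and without replicate 3 it called 4 of 40, 10% beside 23.5%, so the carriers' share was not below that of all genes in every setting.

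Slc25a36 had by far the smallest adjusted p of the carriers in that chi-square test, 4.6e-12, with 1254, 1139 and 1537 counts, and it was not called without replicate 3. Also called were Slc25a16 (adjusted p = 0.0015 in the chi-square test), Slc25a20 (0.0018), Slc25a46, Slc25a38, Slc25a1, Slc25a24, Slc25a5, Slc25a37, Slc25a4, Slc25a22, Slc25a10 and Slc25a11. No replicate was high or low throughout: replicate 3 was the highest for Slc25a36, Slc25a16 and Slc25a38 and the lowest for Slc25a1, Slc25a24 and Slc25a11. The biological coefficient of variation from edgeR had a median of 0.0943 over the 40 carriers and 0.0866 over all genes tested. It followed depth, from 0.0498 for Slc25a3 to 0.232 for Slc25a31, and Slc25a31, Slc25a34 and Slc25a27, all under 1 FPKM, had the highest values.

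**Figure D4:**
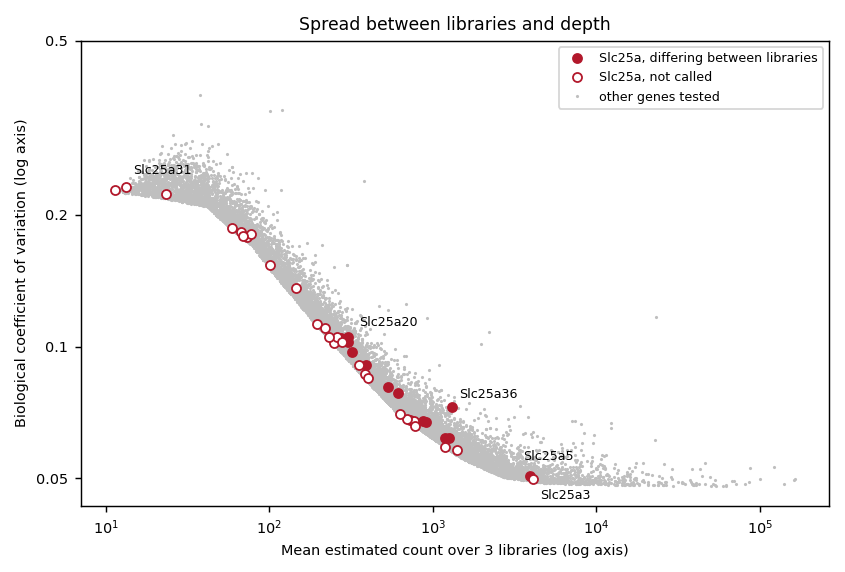
Biological coefficient of variation against mean estimated count for 13246 genes, both on log axes, with 40 Slc25a carriers in red over the other genes in grey. Filled symbols are the 13 carriers called different between libraries, and Slc25a36 is the filled point near the upper edge of the band at its count level, while Slc25a31 is among the 3 at the low-count end.

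Some carrier values could be shared with other loci. Of the 47, 12 have exons that overlap a gene on the opposite strand. Strand was not stated. For Slc25a25 and Naif1 the counts that were not whole, given above, show reads divided between the 2 genes. For the other pairs, whether reads were told apart is not known. Counts were whole in every library for 46 of the 47, all but Slc25a25. For Slc25a35 the overlapping gene is Rangrf, with 25.0% of the 50-base words of Slc25a35 on its other strand, and Rangrf had 31, 29 and 33 counts. For Slc25a11 it is Rnf167, with 6.38% of the words and 1337, 1373 and 1240 counts. For Slc25a33 it is Gm13068, with 12.6% of the words, and Gm13068 is not among the genes tabulated. Slc25a36, set against Slc25a33 in a ratio above, shares 6.7% of its words with Gm13217 on the same strand, also not tabulated. Slc25a5 shares 33.8% of its 50-base words with 9 other annotated loci, among them its processed pseudogenes, and none of these 9 is in the deposited table. Whether reads from those copies were counted to Slc25a5 was not tested. Slc25a4 and Slc25a45 share none.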

How the data were processed

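Total RNA of 3 microglial libraries was sequenced. For each gene and replicate the authors deposited an estimated count and an FPKM value. The submitters' processing notes name the aligner STAR (2.7.9a), the quantifier RSEM, DESeq2 and the builds GRCm38 and mm10. No annotation, library kit or strandedness is given in those notes or in the labels. The estimated counts as deposited are not normalised between libraries, and the deposited FPKM values divide by effective length, which was recovered as count / (FPKM × library total). Dates had replaced 12 gene names, none of them a carrier's.

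The carriers, gene lists, pairs and tests were chosen with earlier results of these data known. All 47 carriers enter the counts and medians, and 46 are named, since 1 carrier is not reported here by name, nor are some listed genes. Values in every library are given for the 12 highest, the 8 pairs, the 3 with the highest dispersion and those with counts that are not whole. Substrate groups came from known function. Of the listed genes, Timm29 and Mcub were not matched.

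Levels used log2(FPKM + 1). Counts were rounded, filtered by edgeR 4.0.16 defaults (R 4.3.3) to 13246 genes, scaled by TMM and fitted with an intercept alone. Steps were tested on simulated data. DESeq2 1.42.0 gave alternative size factors and dispersions. Coordinates and transcripts, compared by 50-base words, are GENCODE M21 on GRCm38, 1-based. PCR reads without molecular identifiers are not independent molecules.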

Additional observations from a re-analysis of the deposited data

How the results depend on the processing

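The number of carriers detected stayed at 37 with a limit of 0.5 FPKM, with a mean of 1 FPKM and without any 1 replicate, and was 38 at 1 CPM and 26 at 5 FPKM. Their median level of 3.08 became 2.92 with a pseudocount of 0.1, 4.17 in CPM with TMM scaling, 3.88 on the TPM scale and 3.65 over detected carriers only, and 3.03 to 3.12 without 1 replicate. Their share of counts became 0.18% as a share of summed FPKM. The number of carriers called different between libraries, 13, was also 13 with DESeq2 size factors or library totals. It was 14 with no filter, and 4 to 8 without 1 replicate, where fewer samples entered the test. Some of these were not among the 13. Slc25a48 was added with no filter, from only 0, 4 and 0 counts, Slc25a30 without replicate 2 and Slc25a26 without replicate 3. The median coefficient of variation of the 40 carriers tested was 0.0943, and 0.111 with DESeq2 dispersions. The mitoferrin ratio of 1.20 reversed to 0.389 in estimated counts, by the removal of length. None of the other 7 ratios changed side under counts, a pseudocount of 1 or a replicate left out. The differences from the import, respiratory and citric acid cycle lists were -1.14, -3.31 and -2.39. With a pseudocount of 0.1 these were -1.23, -3.46 and -2.53, and in CPM the import and respiratory values were -0.0073 and -1.86. No paired analysis was possible because there is 1 group. Depth limits the 10 undetected carriers, with 0 to 28 counts a library.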
